A study of Mus musculus with 27 samples.

Results

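The AP-1 transcription factors are dimers that can hold products of 7 mouse genes of the Fos and Jun families, alongside other partners. The Fos family genes are Fos, Fosb, Fosl1 and Fosl2, and the Jun family genes are Jun, Junb and Jund. Their transcripts were followed in KUSA4b10 cells, a mouse line of marrow stromal cells that can take on features of osteoblasts. Cells stayed untreated or received a peptide: PTH, the 1 to 34 fragment of parathyroid hormone, at 10 nM, or PTHrP, the 1 to 141 form of its related protein, at 20 nM. Each condition was sampled at 1, 6 and 24 h, which gives 9 groups of 3 arrays, 27 in all. The 7 genes were taken as a family by name, with earlier results of these data known. All 7 were on the array and passed the filter on dim genes, out of 15711 genes tested. They had 11 probe sets annotated to a single gene, and each gene is represented by the one with the highest mean, with the other 4 as a check. All groups are of the same cell line. Nothing in the labels says that the 3 arrays of a group came from independent cultures, so the p-values reflect the spread among arrays, which may be technical.

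Fos and Jun proteins bind DNA through a basic region next to a leucine zipper. Fos proteins need a partner from outside their family, such as a Jun protein, to bind, whereas Jun proteins can also pair with each other. Several of these genes are immediate early genes, switched on by a stimulus without new protein synthesis, and the signal of the PTH receptor through cAMP reaches the Fos gene by the factor CREB. In bone the family matters for both cell lineages: mice without Fos lack osteoclasts, and mice with extra Fosl1 or a short form of Fosb make excess bone.

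The stromal and osteoblast identity of the cells was checked first. All 9 measured markers of that lineage had a mean log2 intensity of at least 7, led by Col1a1 at 14.52, and their summed linear intensity ran from 39910 to 77230 between arrays, with the lowest group mean with PTH at 24 h. Of 7 markers of macrophages and blood, Csf1r, Cd14 and Lyz2 had a mean of at least 7, while Ptprc, which marks blood cells in general, stayed between 3.89 and 4.38, and the list summed to 574.7 to 771.9. Of 5 endothelial markers 0 had a mean of at least 7, and they summed to 203.9 to 293.1. Of 5 chondrocyte and 5 muscle markers, 2 each reached that mean, with sums of 524.5 to 939.7 and 477.5 to 641.9. Adipoq and Fabp4, markers of fat cells, were bright, and the summed linear intensity of the 3 measured fat cell markers ranged from 1555 to 7186 between arrays, with the lowest group mean with PTH at 24 h and the highest with PTHrP at 6 h. The part of these lists in the results was not tested. In bulk RNA, fewer cells of a type and less RNA per cell cannot be told apart. Correlations of log2 values between arrays of a group (across genes, which are not independent replicates) were 0.99203 to 0.99779, apart from the group given PTHrP for 1 h. There replicate 3 differed most and the lowest correlation was 0.98314. Calls and main differences at 1 h are therefore also given without that array, as are several changes from 1 to 6 h with PTHrP. Values below are log2 intensities of 1 probe set per gene, so from here levels are compared between groups and never between genes. The marker check above is the exception, as it held different probe sets to the same limit. Errors are SD over 3 arrays for a level and SE from the fit for a difference.

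In untreated cells 4 of the 7 genes fell between 1 and 6 h, before any ligand is considered, and 0 rose. Of all genes, 1.55% were called lower and 0.719% higher in this comparison. The largest fall was that of Fosb, at 8.61, 8.65 and 8.41 on the 3 untreated arrays of 1 h and 5.56, 5.94 and 5.92 on those of 6 h, so that it fell by 2.75 ± 0.16 log2 units (limma adjusted p = 4.85e-11). Junb, Fos and Jun also fell, with differences of -1.57 ± 0.11, -1.41 ± 0.15 and -0.83 ± 0.13 (limma adjusted p = 2.51e-09, 1.55e-06 and 0.000634). Fosl2 and Jund also lay lower on all 3 arrays of 6 h, at differences of -0.26 ± 0.09 and -0.24 ± 0.07 that did not pass (limma adjusted p = 0.205 and 0.103), which brings the members without overlap to 6 of 7, against 12.6% of all genes. Jund passed with an adjusted p = 0.0433 when PTHrP 1 h replicate 3 was left out of the shared estimate of the spread. By the second probe sets of Fosl2 and Jund the arrays overlapped. Their differences were 0.16 ± 0.13 and -0.10 ± 0.11 (limma adjusted p = 0.744 and 0.871), with the sign reversed for Fosl2. Fosl1 arrays overlapped, at 9.37 to 9.78 and 9.06 to 9.42.

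By 24 h untreated cells had regained part of Junb, and Jund stood above its level of 1 h. From 6 to 24 h Junb rose by 0.50 ± 0.11 and Jund by 0.50 ± 0.07 (limma adjusted p = 0.00179 and 1.17e-05), 2 of 7 members against 12.1% of all genes called higher and 11.4% lower. Fos and Fosl2 were higher by 0.39 ± 0.15 and 0.24 ± 0.09 without passing (limma adjusted p = 0.0609 and 0.066). Fos passed without control 24 h replicate 3, PTHrP 1 h replicate 1 or PTHrP 1 h replicate 3 (limma adjusted p = 0.0189 to 0.0478), and Fosl2 without PTHrP 1 h replicate 1 (limma adjusted p = 0.034). Fosb stayed low, at 6.01, 5.92 and 5.72. Against 1 h, Fosb, Fos, Junb and Jun were still lower at 24 h, with differences of -2.67 ± 0.16, -1.02 ± 0.15, -1.07 ± 0.11 and -0.62 ± 0.13, and Jund was higher by 0.26 ± 0.07 (limma adjusted p = 1.23e-11, 1.1e-05, 1.4e-07, 0.00128 and 0.0106). Of all genes, 11.5% were called lower and 11.6% higher. The Jund call was lost without control 1 h replicate 3 or control 24 h replicate 3 (limma adjusted p = 0.0705 to 0.0949 with the difference at 0.19 to 0.22), and with the mean of its probe sets (0.10, limma adjusted p = 0.413). Fosl1, at -0.33 ± 0.14 (limma adjusted p = 0.105), passed as lower without control 24 h replicate 1 (-0.55, limma adjusted p = 0.00332). A difference between treated and untreated cells at 6 or 24 h is thus taken from another untreated level than at 1 h, and for Fos, Junb and Jun both levels are given below.

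**Figure D1:**
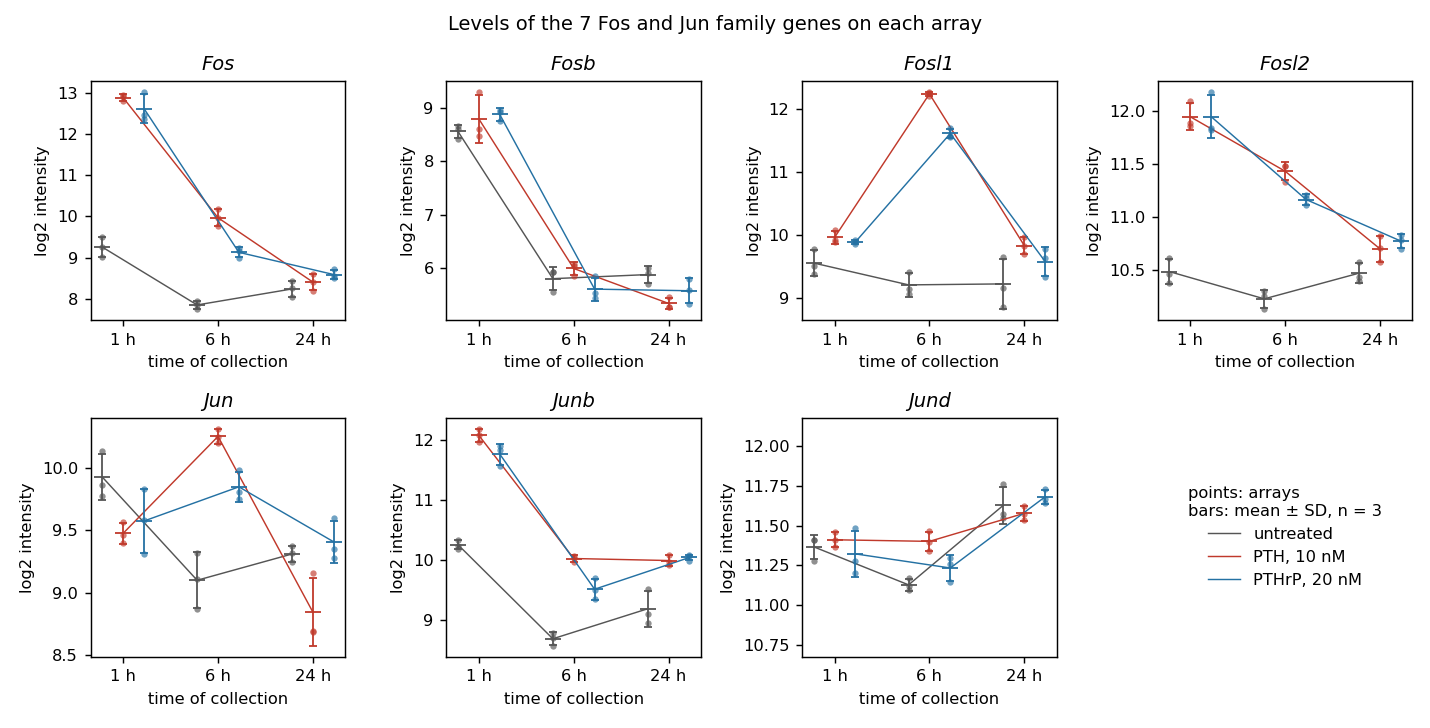
Log2 intensity (vertical axis) of the 7 genes at 1, 6 and 24 h in untreated cells, with PTH and with PTHrP; points are arrays, bars the mean and SD of 3. Fos, Junb and Fosl2 were highest in treated cells at 1 h, Fosl1 with either ligand at 6 h, and Fosb in all 3 groups of 1 h.

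After 1 h, 3 of the 7 genes had risen with each ligand, Fos, Junb and Fosl2, and 0 had fallen. Of all genes, 1.44% were called higher and 0.299% lower with PTH, and 1.57% and 0.248% with PTHrP. Without PTHrP 1 h replicate 3 these shares were 2.34% and 0.477% with PTH, and 3.9% and 2.03% with PTHrP. The member count was then 4 with either ligand, with Jun added as lower (limma adjusted p = 0.0496 and 0.0416). The median difference over the 7 genes was 0.41 with PTH and 0.34 with PTHrP, against -0.02 and 0.01 over all genes tested. Both comparisons use the same 3 untreated arrays.

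Fos, whose protein forms the classic AP-1 dimer with Jun, lay at 9.49, 9.02 and 9.25 in untreated cells at 1 h. It lay at 12.94, 12.92 and 12.80 with PTH and at 12.36, 12.47 and 13.03 with PTHrP, so every treated array was far above every untreated one. The differences were 3.63 ± 0.15 and 3.37 ± 0.15 log2 units, or 12.4-fold and 10.3-fold (limma adjusted p = 1.51e-14 and 8.31e-14), and each ranked 4 from the top among all genes tested in its comparison. PTHrP replicate 3 was the highest of the 6 treated arrays, and without it the difference was 3.16. At 6 h Fos had come down to 9.76, 10.18 and 9.96 with PTH and 9.23, 8.99 and 9.17 with PTHrP, still above 7.86, 7.94 and 7.74 in untreated cells. The differences were 2.12 ± 0.15 and 1.28 ± 0.15 (limma adjusted p = 3.57e-11 and 4.47e-07). Against untreated cells of 1 h, the PTH arrays of 6 h were all above and the PTHrP arrays overlapped. At 24 h the levels were 8.40 ± 0.20 with PTH, 8.59 ± 0.11 with PTHrP and 8.24 ± 0.19 in untreated cells (SD, n = 3), and neither difference passed (limma adjusted p = 0.599 and 0.226). The PTHrP arrays of 24 h were still all above the untreated ones, while the PTH arrays overlapped them. With array weights the PTHrP difference passed (0.38, limma adjusted p = 0.0197).

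Junb, a Jun protein that activates many promoters less than Jun does, lay at 10.34, 10.20 and 10.24 in untreated cells at 1 h. It lay at 12.19, 11.97 and 12.09 with PTH and 11.57, 11.91 and 11.84 with PTHrP, without overlap. It rose by 1.82 ± 0.11 and 1.51 ± 0.11, or 3.54-fold and 2.85-fold (limma adjusted p = 4.73e-11 and 1.56e-09). At 6 h the values were 9.96, 10.05 and 10.08 with PTH, 9.70, 9.35 and 9.50 with PTHrP and 8.57, 8.71 and 8.79 in untreated cells, differences of 1.34 ± 0.11 and 0.83 ± 0.11 (limma adjusted p = 1.5e-09 and 6.73e-06). These treated arrays were higher than untreated cells of the same time but lower than untreated cells of 1 h on every array. Junb was the member that passed with either ligand at all 3 times: at 24 h it lay at 10.10, 9.97 and 9.92 with PTH and 9.99, 10.08 and 10.07 with PTHrP, above 9.53, 9.10 and 8.95 in untreated cells, by 0.80 ± 0.11 and 0.85 ± 0.11 (limma adjusted p = 1.95e-05 and 1.29e-05).

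Fosl2, the gene of Fra-2, lay at 10.61, 10.37 and 10.46 in untreated cells at 1 h, 11.86, 12.09 and 11.88 with PTH and 12.18, 11.84 and 11.82 with PTHrP, again without overlap. It rose by 1.46 ± 0.09 and 1.46 ± 0.09, or 2.76-fold and 2.76-fold (limma adjusted p = 6.24e-11 and 6.94e-11). At 6 h it lay at 11.33, 11.47 and 11.48 with PTH and 11.17, 11.21 and 11.11 with PTHrP, against 10.29, 10.25 and 10.13 in untreated cells. Those differences were 1.21 ± 0.09 and 0.94 ± 0.09 (limma adjusted p = 2.76e-10 and 4.53e-08). At 24 h they were 0.23 ± 0.09 and 0.30 ± 0.09 and did not pass (limma adjusted p = 0.133 and 0.0581). The PTHrP value sat near the threshold: its adjusted p fell to between 0.0261 and 0.0498 without PTH 24 h replicate 1, PTHrP 1 h replicate 1 or PTHrP 1 h replicate 3, and over all settings, the dimmer probe set included, it ran from 0.00462 to 0.823. At 1 h the increases of Junb and Fosl2 with PTHrP were 1.48 and 1.53 without replicate 3 of that group.

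Promoter sequence was examined for the family, whether or not a gene rose at 1 h, because cAMP signalling acts on Fos through CREB. RefSeq promoters (build GRCm38.p6) were on hand for 6 of the 7 genes, not for Fosl1. The last 120 bases before the annotated start are shown 5′ to 3′ for Fos, Fosb and Junb, which hold the short CREB-site core TGACG, and for Jun, which holds TGACATCA. Capitals mark matches on either strand to the core, to the looser form of the full CREB site written TGACNTCA, or to the TATA box.
Fos, chr12:85473770-85473889, plus strand: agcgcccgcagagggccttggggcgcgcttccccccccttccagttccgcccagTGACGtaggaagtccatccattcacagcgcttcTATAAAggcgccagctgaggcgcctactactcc
Fosb, chr7:19310046-19310165, minus strand: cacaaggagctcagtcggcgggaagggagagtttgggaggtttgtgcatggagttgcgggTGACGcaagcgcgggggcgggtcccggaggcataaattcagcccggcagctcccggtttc
Junb, chr8:84978749-84978868, minus strand: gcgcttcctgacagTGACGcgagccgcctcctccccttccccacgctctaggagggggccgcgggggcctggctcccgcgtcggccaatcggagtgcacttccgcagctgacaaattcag
Jun, chr4:95052223-95052342, minus strand: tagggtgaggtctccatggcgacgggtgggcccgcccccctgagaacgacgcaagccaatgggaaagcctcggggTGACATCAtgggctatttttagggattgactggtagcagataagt
In the Fos promoter TGACG begins at base -66 and the TATA box, as TATAAA, at -33, counted from the last base before the start as -1, and a further TGACG begins at -129, outside the stretch shown. TGACG begins at -60 in Fosb and at -106 in Junb, and TGACATCA begins at -45 in Jun. Within 250 bases before the start, TGACG on either strand was in 3 of the 6 family promoters and in 17.8% of 32851 RefSeq promoters. TGACNTCA, which includes the full site TGACGTCA, was in 1 of 6 and in 7.49% of all promoters. The AP-1 site, searched only as TGANTCA and found that way in 6.75% of all promoters, was in 0 of 6. That pattern cannot match longer forms such as the TGACATCA of Jun. The full CREB site (1.55% of all promoters) and the CArG box of serum response factor (1.47%) were also in 0 of 6 there. Bases further upstream were not searched, so a site beyond this window would be missed. Of the genes with TGACG, Fos and Junb passed at 1 h and Fosb did not, and Fosl2 passed with none of these letters in its window. These matches describe the letters only.

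Fosl1, the gene of Fra-1, was the late member. At 1 h it lay at 9.78, 9.37 and 9.51 in untreated cells, 9.89, 10.08 and 9.92 with PTH and 9.90, 9.86 and 9.92 with PTHrP. All treated arrays were higher, but the differences of 0.41 ± 0.14 and 0.34 ± 0.14 did not pass (limma adjusted p = 0.262 and 0.436). At 6 h it lay at 12.21, 12.26 and 12.27 with PTH and 11.71, 11.58 and 11.56 with PTHrP, against 9.06, 9.42 and 9.15 in untreated cells. It rose by 3.04 ± 0.14 and 2.41 ± 0.14, or 8.23-fold and 5.32-fold (limma adjusted p = 3.2e-14 and 5.84e-12), and ranked 14 and 13 from the top among all genes tested. The 6 h arrays stood apart from every other group, with the PTH arrays above the PTHrP arrays. At 24 h the levels had returned to 9.97, 9.83 and 9.70 with PTH and 9.63, 9.77 and 9.33 with PTHrP, against 9.65, 9.16 and 8.85 in untreated cells. The PTH difference of 0.61 ± 0.14 passed (limma adjusted p = 0.00507), although not without control 24 h replicate 3 (0.43, limma adjusted p = 0.0638). The PTHrP difference of 0.36 ± 0.14 did not (limma adjusted p = 0.192), although it passed without control 24 h replicate 1 (0.57, limma adjusted p = 0.00711).

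Jun was the other gene whose highest treated level came at 6 h. At 1 h the untreated arrays read 10.13, 9.86 and 9.78, the PTH arrays 9.56, 9.40 and 9.46 and the PTHrP arrays 9.31, 9.58 and 9.83, so the PTH arrays were all below the untreated ones and the PTHrP arrays overlapped them. The differences of -0.45 ± 0.13 and -0.35 ± 0.13 did not pass (limma adjusted p = 0.116 and 0.334). Whether they passed depends on the processing. Without PTHrP 1 h replicate 3 they passed as decreases, at -0.45 and -0.48 (limma adjusted p = 0.0496 and 0.0416), and with array weights at -0.45 and -0.47 (0.0197 and 0.0131). With PTH Jun passed also with quantile normalization (-0.53, limma adjusted p = 0.034), cyclic loess (0.0498), the mean of its probe sets (0.0476) or only the groups compared (0.0394), and over all settings the adjusted p ran from 0.0197 to 0.511 with PTH and from 0.0131 to 0.857 with PTHrP. At 6 h the PTH arrays read 10.19, 10.24 and 10.31 and the PTHrP arrays 9.98, 9.81 and 9.75, all above 9.11, 9.32 and 8.87 in untreated cells. Jun rose by 1.15 ± 0.13 with PTH and 0.75 ± 0.13 with PTHrP (limma adjusted p = 2.69e-07 and 0.000186). Against untreated cells of 1 h, the PTH arrays of 6 h were all above and the PTHrP arrays overlapped, as for Fos. At 24 h Jun lay at 9.16, 8.69 and 8.69 with PTH, 9.27, 9.60 and 9.34 with PTHrP and 9.37, 9.32 and 9.24 in untreated cells. With PTH the difference was -0.46 ± 0.13 (limma adjusted p = 0.0232), and with PTHrP it was 0.10 ± 0.13 (limma adjusted p = 0.847).

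Fosb, which also yields a short stable protein known from bone and brain, moved with time. Against untreated cells it passed only with PTH at 24 h. At 1 h it lay at 9.30, 8.61 and 8.47 with PTH and 8.92, 8.74 and 8.96 with PTHrP, against 8.61, 8.65 and 8.41 in untreated cells. The differences were 0.23 ± 0.16, with overlapping arrays, and 0.32 ± 0.16, without overlap, and neither passed (limma adjusted p = 0.729 and 0.553). From 1 to 6 h it fell in treated cells as well, with differences of -2.79 ± 0.16 with PTH and -3.26 ± 0.16 with PTHrP (limma adjusted p = 1.37e-12 and 1.57e-13), next to a difference of -2.75 ± 0.16 in untreated cells. At 6 h its differences from untreated cells were 0.19 ± 0.16 and -0.20 ± 0.16 (limma adjusted p = 0.453 and 0.441). With array weights the PTHrP difference passed as lower (-0.39, limma adjusted p = 0.00403). Group means of 6 h, 5.61 to 6.00, were near the lower limit set for testing, where a difference can be understated. At 24 h it was lower with PTH, at 5.47, 5.29 and 5.28 against 6.01, 5.92 and 5.72, a difference of -0.54 ± 0.16 (limma adjusted p = 0.0284), with the values near the lower limit set for testing, log2 5 on at least 3 arrays. With PTHrP the 24 h difference was -0.30 ± 0.16 (limma adjusted p = 0.407).

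Jund, a Jun gene with a steady level in many cells, had the narrowest range, with group means that spanned 0.55 log2 units. Over all 27 arrays it lay between 11.10 and 11.76. It passed with a ligand once, with PTH at 6 h, where 11.40, 11.34 and 11.47 stood above 11.17, 11.10 and 11.12 in untreated cells, by 0.27 ± 0.07 (limma adjusted p = 0.00569). The call was lost with the mean of both Jund probe sets (0.16, limma adjusted p = 0.123). With PTHrP at 6 h the difference was 0.11 ± 0.07 (limma adjusted p = 0.35). The PTH arrays of 6 h overlapped untreated cells of 1 h.

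By 6 h, then, 6 of the 7 genes stood higher with PTH and 5 with PTHrP, and 0 lower. Of all genes, 11.4% were called higher and 17.9% lower with PTH, and 8.7% and 12.2% with PTHrP. The median difference over the 7 genes was 1.21 and 0.83, against -0.0034 and 0.03 over all genes. At 24 h with PTH, 2 members were higher (Junb and Fosl1) and 2 lower (Fosb and Jun), against 5.69% and 5.96% of all genes. With PTHrP, 1 was higher (Junb) and 0 lower, against 3.09% and 3.02%. The Fosb and Jun calls with PTH were each lost without control 24 h replicate 1, control 24 h replicate 2, PTH 24 h replicate 2 or PTH 24 h replicate 3, where the adjusted p was 0.0834 to 0.119 for Fosb and 0.0679 to 0.119 for Jun. Fosb also lost it with 16 added before log2 (-0.41, limma adjusted p = 0.0595). The log2 ratio of the 3′ to the 5′ probe set of Actb, which rises when RNA is degraded, moved with time and treatment. In untreated cells it was 0.23 ± 0.02 at 1 h, 0.25 ± 0.05 at 6 h and 0.38 ± 0.01 at 24 h, and at 1 h it was 0.27 ± 0.02 with PTH and 0.28 ± 0.03 with PTHrP (SD, n = 3). At 24 h it was 0.42 ± 0.01 with PTH and 0.44 ± 0.01 with PTHrP, and at 6 h 0.34 ± 0.01 and 0.30 ± 0.05 (SD, n = 3). The same ratio of Gapdh lay between -0.22 and -0.15 in all 9 groups, and at 24 h it was -0.21 ± 0.01 in untreated cells, -0.21 ± 0.01 with PTH and -0.22 ± 0.01 with PTHrP (SD, n = 3). The part of these ratios in the results was not tested.

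**Figure D2:**
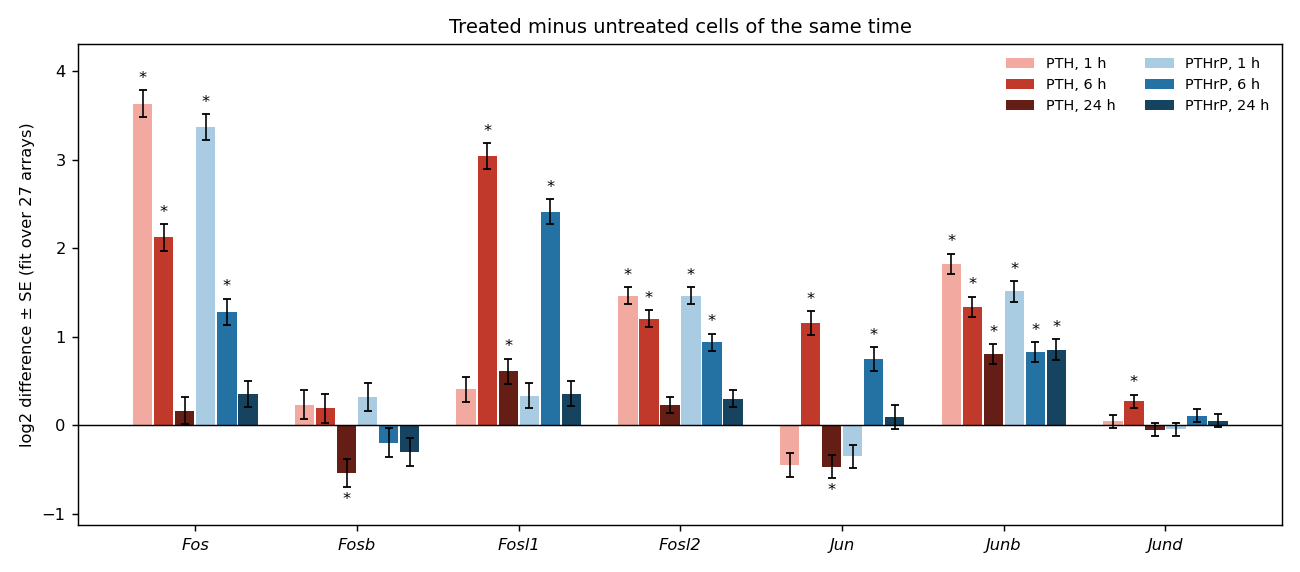
Log2 difference of treated from untreated cells of the same time for each gene (bars, with the SE of the fit over 27 arrays), for PTH in reds and PTHrP in blues; a star marks an adjusted p under 0.05. The bars of Fos and Junb are highest at 1 h, those of Fosl1 and Jun at 6 h, and those of Fosb stay small or below 0.

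Whether each effect changed with time was tested directly. Between 1 and 6 h the effect of PTH became smaller for Fos and Junb, with changes of -1.51 ± 0.21 and -0.48 ± 0.16, and larger for Fosl1 and Jun, with 2.63 ± 0.20 and 1.60 ± 0.19 (limma adjusted p = 8.79e-06, 0.038, 1.03e-09 and 9.78e-07). Of all genes, 12.1% had a lower and 6.49% a higher effect at 6 h. The Junb call was lost without control 1 h replicate 2 or 3, control 6 h replicate 2 or 3, PTH 1 h replicate 1 or 3, or PTH 6 h replicate 1 or 2 (limma adjusted p = 0.0579 to 0.0927), and with the replicate block within each time (limma adjusted p = 0.058), quantile normalization (0.0605) or cyclic loess (0.0778). With PTHrP the effect became smaller for Fos, Junb and Fosl2, with changes of -2.09 ± 0.21, -0.69 ± 0.16 and -0.52 ± 0.13, and larger for Fosl1 and Jun, with 2.08 ± 0.20 and 1.10 ± 0.19 (limma adjusted p = 1.46e-07, 0.00562, 0.00976, 1.04e-07 and 0.000262), against 8.45% and 3.74% of all genes. Without PTHrP 1 h replicate 3 these changes were -1.88, -0.65 and -0.59 for Fos, Junb and Fosl2, and 2.09 and 1.23 for Fosl1 and Jun. The member count was still 5. The Fosl2 call was lost with the mean of its probe sets (-0.32, limma adjusted p = 0.0737) and with the dimmer set alone (-0.12, limma adjusted p = 0.706). From 6 to 24 h the effect of PTH became lower for 7 of 7 members (7.82% of all genes, with 12.6% higher), with changes from -2.43 ± 0.20 for Fosl1 to -0.32 ± 0.10 for Jund. The Fosb call was lost without control 24 h replicate 1, control 6 h replicate 1, PTH 24 h replicate 3 or PTH 6 h replicate 2 (limma adjusted p = 0.0503 to 0.0819). The Junb call was lost without control 24 h replicate 1 or control 6 h replicate 1 (0.0616 to 0.0771). The Jund call was lost without control 24 h replicate 3, control 6 h replicate 2 or 3, PTH 24 h replicate 2 or PTH 6 h replicate 3 (0.0521 to 0.101), with median centring (0.0597), and with the mean of its probe sets (-0.16, limma adjusted p = 0.324). The effect of PTHrP became lower for 4, Fos, Fosl1, Fosl2 and Jun (5.03% of all genes, with 7.08% higher). The Jun call was lost without control 24 h replicate 1 or 2, control 6 h replicate 3, PTHrP 24 h replicate 1 or 3 or PTHrP 6 h replicate 1 (limma adjusted p = 0.0506 to 0.0821), and with the replicate block within each time (0.0512). The change of Junb in that step was 0.03 ± 0.16 with PTHrP (limma adjusted p = 0.93) and -0.53 ± 0.16 with PTH (limma adjusted p = 0.0197).

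The levels themselves, as opposed to differences from untreated cells, tell the members apart in the same step. From 1 to 6 h Fos and Junb fell, with differences of -2.92 ± 0.15 and -2.05 ± 0.11 with PTH and -3.49 ± 0.15 and -2.25 ± 0.11 with PTHrP (limma adjusted p = 1.29e-13, 8.31e-13, 8.28e-15 and 2.79e-13). Fosl1 rose by 2.29 ± 0.14 and 1.73 ± 0.14 (limma adjusted p = 5.82e-12 and 1.62e-09). Without PTHrP 1 h replicate 3 the PTHrP differences of Fos, Junb and Fosl1 were -3.29, -2.22 and 1.74. Jun rose by 0.78 ± 0.13 with PTH (limma adjusted p = 6.58e-05, or 0.0509 at 0.30 ± 0.12 with its dimmer probe set), and with PTHrP it differed by 0.27 ± 0.13 (limma adjusted p = 0.134, or 0.0241 at a difference of 0.40 without PTHrP 1 h replicate 3). The PTHrP difference of Jun also passed with quantile normalization (limma adjusted p = 0.0336), cyclic loess (0.0259) or array weights (0.00845). With the dimmer probe set it did not pass (0.04 ± 0.12, limma adjusted p = 0.793). With PTH 2 members were higher and 4 lower at 6 h than at 1 h, and with PTHrP 1 and 4, against 12.4% and 20.3%, and 9.52% and 18.7%, of all genes. From 6 to 24 h, 5 members fell with PTH, all but Junb and Jund (17.5% of all genes were called lower and 24.3% higher). Jund, at 0.18 ± 0.07 (limma adjusted p = 0.0587), passed as higher without control 24 h replicate 3 or PTHrP 1 h replicate 3 (0.0332 to 0.0486). With PTHrP 4 fell, Fos, Fosl1, Fosl2 and Jun, and 2 rose, Junb and Jund (17.5% and 21.2% of all genes). The call of Jun with PTHrP in that step, at -0.44 ± 0.13, was lost without PTHrP 6 h replicate 1 or PTHrP 24 h replicate 1 (limma adjusted p = 0.0568 to 0.0615), and with the dimmer probe set (-0.18 ± 0.12, limma adjusted p = 0.221).

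**Figure D3:**
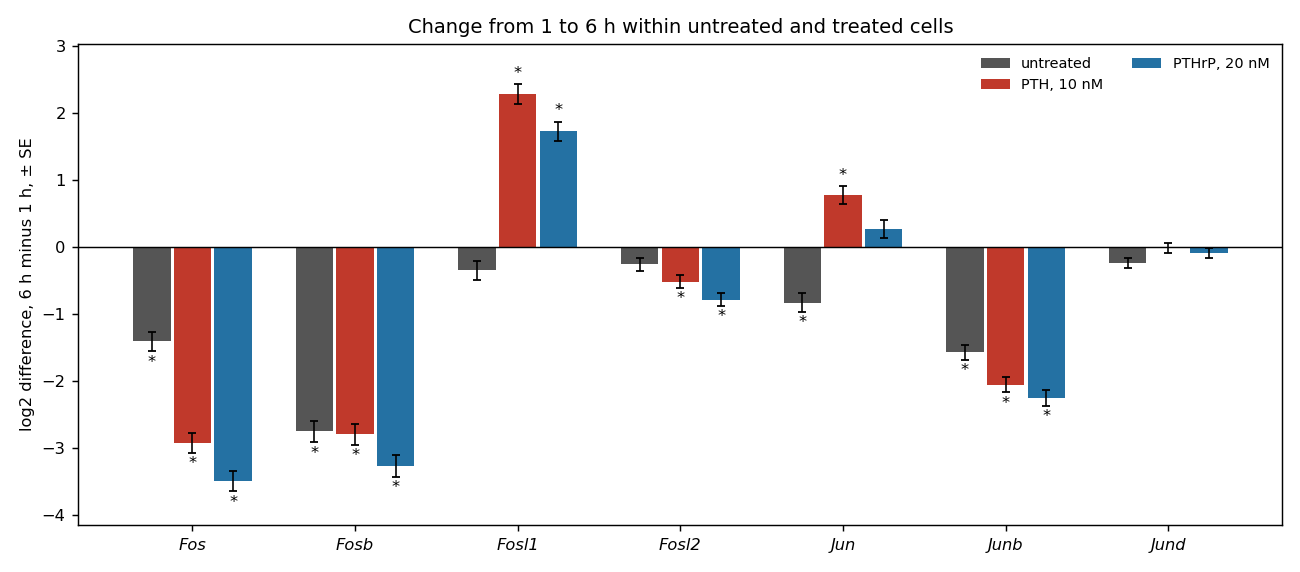
Log2 difference of 6 h from 1 h for each gene (bars, with the SE of the fit), in untreated cells, with PTH and with PTHrP; a star marks an adjusted p under 0.05. Fos, Fosb and Junb fell in all 3 conditions, while Fosl1 rose in treated cells only.

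The ligands were set side by side at each time, with the caution that PTHrP was given at 20 nM and as a longer peptide and PTH at 10 nM, so ligand, length and dose cannot be told apart. These were 21 differences, 7 genes at 3 times, with p-values adjusted over all genes within a time. At 1 h limma called 0 of the 7 members, and 0% of all genes higher and 0% lower, while 1 member, Junb, and 632 genes had an unadjusted p under 0.05. The member count was also 0 under each of the other settings run. The 95% intervals of PTHrP minus PTH at 1 h were -0.57 to 0.04 for Fos, -0.55 to -0.07 for Junb and -0.19 to 0.20 for Fosl2. With all arrays only the Junb interval excludes 0, before any adjustment for the number of genes. Without PTHrP 1 h replicate 3 the estimate for Fos moved from -0.27 ± 0.15 to -0.47 ± 0.14, and the intervals of Fos (-0.75 to -0.19), Junb (-0.61 to -0.08) and Jund (-0.32 to -0.02) excluded 0. The member count at an adjusted p under 0.05 was 0 there too (limma adjusted p = 0.795, 0.811 and 0.816), with 936 genes at an unadjusted p under 0.05. A p that misses the threshold does not show that the ligands acted alike. At 6 h all 3 PTHrP arrays lay below all 3 PTH arrays for 7 of 7 members, a pattern held by 10.6% of all genes, and 3 members passed as lower with PTHrP, against 3.17% of all genes lower and 4.45% higher. These were Fos, Fosl1 and Junb, with differences of -0.84 ± 0.15, -0.63 ± 0.14 and -0.51 ± 0.11 (limma adjusted p = 0.000834, 0.0073 and 0.00641). The others did not pass, with intervals of -0.68 to -0.13 for Jun, -0.72 to -0.05 for Fosb, -0.46 to -0.07 for Fosl2 and -0.32 to -0.02 for Jund. The 7 of 7 depends on the probe set. By their second sets the PTHrP and PTH arrays overlapped for Fosl2 (-0.25 ± 0.13) and Jund (-0.01 ± 0.11), but not for Fosl1 and Jun. Jun passed without PTH 24 h replicate 1 or PTHrP 1 h replicate 3 (limma adjusted p = 0.0385 and 0.0378), and Fosl2 without PTHrP 1 h replicate 1 (limma adjusted p = 0.0492), arrays that enter these comparisons only through the shared estimate of the spread. Fosl2 passed too with the replicate block of untreated and PTHrP arrays at 1 h, which was chosen after seeing the data (limma adjusted p = 0.0402). At 24 h the single member that passed was Jun, higher with PTHrP by 0.56 ± 0.13 (limma adjusted p = 0.0366), against 0.84% of all genes called higher and 0.318% lower. That call was lost without PTH 24 h replicate 2 or 3 or any of the 3 PTHrP 24 h arrays (0.47 to 0.63, limma adjusted p = 0.0505 to 0.205), and with the replicate block within each time (limma adjusted p = 0.0952), median centring (0.0602) or only the groups compared (0.125).

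**Figure D4:**
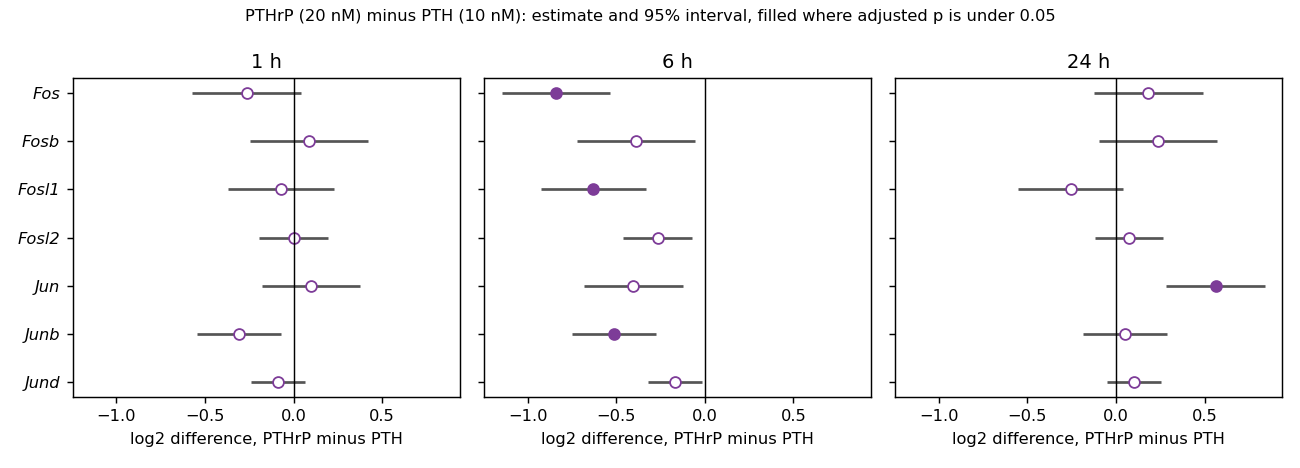
PTHrP minus PTH in log2 units at 1, 6 and 24 h for each gene, with the 95% interval of the fit over 27 arrays; filled points passed at an adjusted p under 0.05. At 6 h all 7 estimates lie below 0, from -0.84 for Fos to -0.17 for Jund.

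The order of the 9 group means gave each gene its own profile. For Fos the PTH and PTHrP groups of 1 h came first and overlapped, PTH at 6 h followed without overlap, and untreated cells at 6 h came last. For Junb the order began PTH, PTHrP and untreated, all at 1 h, with no overlap between neighbours. It went on with a run of 3 overlapping groups, PTHrP at 24 h, PTH at 6 h and PTH at 24 h, at 10.05 ± 0.05, 10.03 ± 0.06 and 10.00 ± 0.09 (SD, n = 3). For Fosl1 the 6 h groups with PTH and PTHrP stood apart, and each of the other 7 groups overlapped its neighbour. For Fosb all 3 groups of 1 h overlapped at the top, then a gap of over 2 log2 units separated them from the other 6, which overlapped in turn. For Jun, PTH at 6 h came first without overlap and PTH at 24 h last, and every neighbour after the first overlapped.

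By the correlation of 9 group means, a description over points that share arrays and normalization, Fos and Junb had profiles close to each other (Pearson r = 0.9429), as had Fos and Fosl2 (0.93). Fosl1 was closest to Jun (0.7109) and showed 0.1736 with Fos. Among the 1999 other genes whose group means spanned at least 1 log2 unit, those most like Fos were Midn, Csrnp1 and Per1 (r = 0.993, 0.991 and 0.990). Per1 is a clock gene with a strong response to cAMP. Most like Junb were Zfp36, an mRNA decay factor, Hes1, a transcriptional repressor, and Foxc2, a forkhead factor (0.978, 0.973 and 0.964). Most like Fosl2 were Rgs2, a regulator of G protein signalling, Sema4c and Dusp10 (0.989, 0.986 and 0.982). For Fosl1 they were Gm32219, Ptges, the prostaglandin E synthase gene, and Unc13a (0.990, 0.985 and 0.984). For Fosb they were Klhl15, Ereg, a growth factor gene of the EGF family, and Id1 (0.981, 0.981 and 0.978). Jun had no gene as close, with Galr2, Ldhb and Dda1 at 0.880, 0.876 and 0.869.

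A second probe set was available for Fosl1, Fosl2, Jun and Jund. For Fosl1 (1417488_at, next to 1417487_at) it gave close values, 3.15 ± 0.13 and 2.55 ± 0.13 at 6 h, and passed also with PTH at 1 h, at 0.53 ± 0.13 (limma adjusted p = 0.0368), and with PTHrP at 24 h, at 0.50 ± 0.13 (limma adjusted p = 0.0218). For Jun (1448694_at, next to 1417409_at) it gave 0.81 ± 0.12 and 0.61 ± 0.12 at 6 h, but 5 calls were lost. Those at 24 h were lost at -0.25 ± 0.12 for PTH against untreated cells and 0.40 ± 0.12 for PTHrP against PTH (limma adjusted p = 0.202 and 0.113). The rise with PTH from 1 to 6 h became 0.30 ± 0.12, the difference with PTHrP from 6 to 24 h -0.18 ± 0.12, and the change of the PTHrP effect in that step -0.45 ± 0.16 (limma adjusted p = 0.0509, 0.221 and 0.0754). For Fosl2 the dimmer set (1422931_at, next to 1437247_at) rose by a smaller amount at 1 h, 0.71 ± 0.13 and 0.63 ± 0.13, and passed at 6 h, at 0.76 ± 0.13 and 0.51 ± 0.13. It did not fall from 1 to 6 h, at 0.21 ± 0.13 with PTH and 0.04 ± 0.13 with PTHrP (limma adjusted p = 0.215 and 0.82), where the brighter set gave -0.51 ± 0.09 and -0.78 ± 0.09. With PTH the mean of both sets did not pass either (-0.15, limma adjusted p = 0.17). At 24 h its differences from untreated cells were -0.28 ± 0.13 and -0.10 ± 0.13 (limma adjusted p = 0.172 and 0.823), opposite in sign to the brighter set. For Jund the second set (1440265_at, next to 1449117_at) lay between 5.32 and 5.85 on all arrays, limma called 0 of its 20 comparisons, and the PTH difference at 6 h was 0.04 ± 0.11. With the brighter set 5 of 20 passed.

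**Figure D5:**
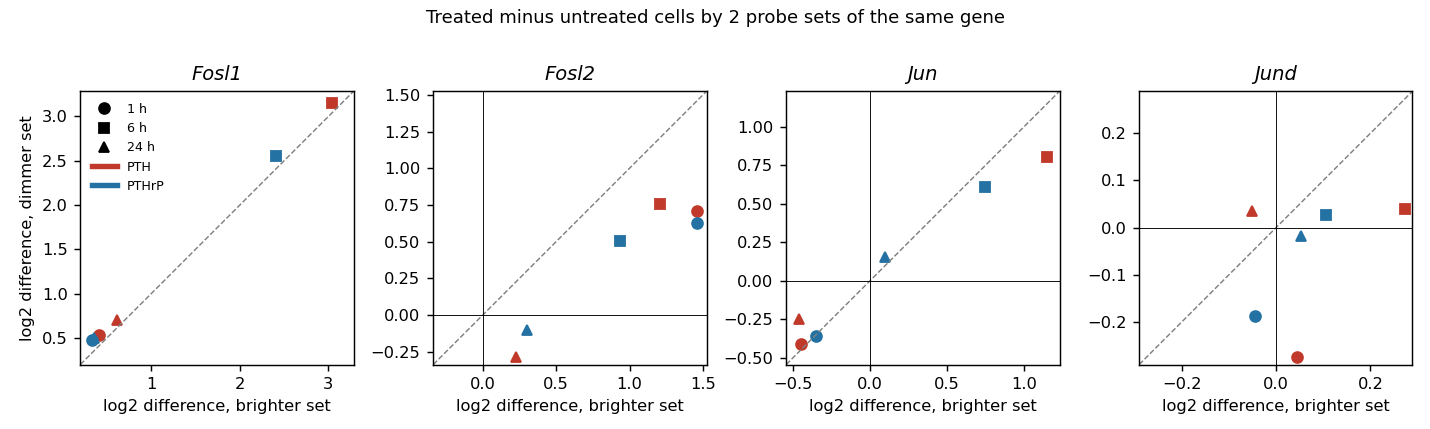
Log2 difference of treated from untreated cells by the brighter (horizontal axis) and the dimmer (vertical axis) probe set of 4 genes; circles are 1 h, squares 6 h and triangles 24 h, PTH in red and PTHrP in blue, with a dashed line of equality. Points of Fosl1 lie close to the line and slightly above it, those of Fosl2 below it.

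Other genes of the pathway were read from lists chosen with earlier results of these data known. Of 14 tested bZIP genes that can pair with Fos or Jun, 1 rose with either ligand at 1 h, Maff, the gene of a small Maf protein, by 0.82 ± 0.13 and 0.68 ± 0.13. At 6 h PTH was followed by 5 higher and 1 lower, and PTHrP by 4 higher and 1 lower. Maff rose by 2.08 ± 0.13 and 1.36 ± 0.13, Ddit3, a stress-induced gene, by 1.75 ± 0.18 and 1.29 ± 0.18, and Nfe2l2, the gene of the oxidative stress factor NRF2, by 0.97 ± 0.12 and 0.64 ± 0.12. The median over this list at 6 h was 0.14 with PTH and 0.15 with PTHrP. At 24 h, 2 were higher with PTH and 1 with PTHrP, Maff in both. Of 13 tested kinases and factors upstream of AP-1, limma called 0 at 1 h with either ligand, while 0 with PTH and 1 with PTHrP had an unadjusted p under 0.05. At 6 h, 3 were higher and 3 lower with PTH, against 1 and 2 with PTHrP. Map2k1, the gene of the kinase MEK1, rose by 0.47 ± 0.09 and 0.42 ± 0.09, and Elk4, a ternary complex factor, was lower, at -0.50 ± 0.11 and -0.37 ± 0.11.

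Among 18 other immediate early genes tested at 1 h, 8 were higher and 1 lower with PTH, and 8 and 2 with PTHrP, led by the orphan receptor gene Nr4a2 at 4.42 ± 0.24 and 4.25 ± 0.24 and the MAP kinase phosphatase gene Dusp1 at 3.07 ± 0.17 and 2.65 ± 0.17. Maff and Atf3 are on this list and on that of the bZIP genes, so the rise of Maff is counted in both. In untreated cells 9 of the 18 fell and 1 rose from 1 to 6 h, among them Egr3, Egr2 and Egr1, at -2.88 ± 0.15, -2.41 ± 0.15 and -1.94 ± 0.15. At 6 h the treated cells split this list, with 8 higher and 5 lower with PTH, and 6 and 5 with PTHrP. At 24 h, 2 were higher and 2 lower with each ligand. Egr3 was lower than in untreated cells at 6 h, by differences of -2.64 ± 0.15 and -2.31 ± 0.15, where all of the AP-1 members that passed were higher.

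Of 17 tested genes known as targets of AP-1, 3 rose and 0 fell with either ligand at 1 h. These were Plaur, the urokinase receptor gene, by 1.69 ± 0.15 and 1.74 ± 0.15, Vegfa, an angiogenic factor, by 1.57 ± 0.11 and 1.38 ± 0.11, and the cytokine gene Il11, by 1.29 ± 0.12 and 1.14 ± 0.12. At 6 h, 9 were higher and 4 lower with PTH, and 7 and 4 with PTHrP, with medians of 0.43 and 0.31. Il11 rose by 4.63 ± 0.12 and 3.34 ± 0.12, and Plaur by 2.61 ± 0.15 and 1.73 ± 0.15. At 24 h, 2 were higher and 7 lower with PTH, and 3 and 3 with PTHrP. Mmp3, a matrix protease, was higher by 0.86 ± 0.18 and 1.44 ± 0.18, and Ibsp, the gene of bone sialoprotein, was lower, at -2.86 ± 0.17 and -1.57 ± 0.17. Shares of all genes called in these comparisons are those given above for the 7 members.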

How the data were processed

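The deposited intensity values per probe set came from RMA, as the submitters' processing notes state, and were normalized anew by the authors when deposited, as the series' design text states. The deposited intensities are linear, from 6.79 to 36257, with array medians of 83.2 to 91.1. The software version is not given in the sources used here. RMA pulls the arrays' distributions together, so a change of most transcripts one way would be hidden. Log2 was taken, 64 control probe sets were left out, and each of 18193 genes with a single symbol was represented by its probe set of highest mean. A filter kept 15711 genes (3 or more arrays at log2 5 or above), which were fitted with limma 3.58.1 (R 4.3.3, 9 group means, 18 residual degrees of freedom, two-sided, Benjamini-Hochberg over all genes within each of 20 comparisons, threshold 0.05). The fit was tested on simulated data. The number of arrays limits precision: the median SE was 0.102 for 2 groups and 0.144 for a change of effect. Members and lists were chosen with earlier results of these data known. Named genes were the members, up to 3 called genes per list and comparison, and the 3 closest profiles per member. Same-numbered arrays deviated together (r over 0.1 for each number) in 1 of 9 pairs of groups, untreated and PTHrP at 1 h, from the data and not the labels. That block, chosen after seeing the data, changed no call in that pair, and through the shared spread added Fosl2 for PTHrP against untreated cells at 24 h and against PTH at 6 h, and Fos and Fosl2 for untreated cells from 6 to 24 h. Promoters are RefSeq's.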

Additional observations from a re-analysis of the deposited data

Results flagged for a closer look

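The effect of a ligand differed between times for 20 combinations of a member, a ligand and a step in time. Each was judged by a test of the difference itself in limma, with p-values adjusted over all genes. From 1 to 6 h these were 4 of 7 members with PTH and 5 with PTHrP, and from 6 to 24 h 7 and 4. Of all genes, 12.1% were called lower and 6.49% higher with PTH in the first step, and 8.45% and 3.74% with PTHrP. In the second step the shares were 7.82% and 12.6% with PTH, and 5.03% and 7.08% with PTHrP. Both steps use the same 6 h arrays. Differences are in log2 units, later minus earlier effect. For Fos the effect changed by -1.51 ± 0.21 with PTH and -2.09 ± 0.21 with PTHrP from 1 to 6 h, and by -1.95 ± 0.21 and -0.93 ± 0.21 from 6 to 24 h. For Fosl1 the changes were 2.63 ± 0.20 and 2.08 ± 0.20, then -2.43 ± 0.20 and -2.05 ± 0.20, so its effect rose and fell back with both ligands. Jun had the same order of signs, with 1.60 ± 0.19 and 1.10 ± 0.19, then -1.62 ± 0.19 and -0.65 ± 0.19. For Junb the effect changed by -0.48 ± 0.16 with PTH and -0.69 ± 0.16 with PTHrP from 1 to 6 h, and by -0.53 ± 0.16 with PTH from 6 to 24 h. For Fosl2 it changed by -0.52 ± 0.13 with PTHrP from 1 to 6 h (-0.32 with the mean of its probe sets and -0.12 with the dimmer one, where the call was lost), and by -0.98 ± 0.13 and -0.64 ± 0.13 from 6 to 24 h. For Fosb and Jund the effect of PTH changed from 6 to 24 h by -0.73 ± 0.23 and -0.32 ± 0.10 (limma adjusted p = 0.0232 and 0.0279). As given above, these calls of Fosb and Jund were lost under some settings. So were the Junb calls with PTH in both steps, and the Jun call with PTHrP from 6 to 24 h. The untreated level moved in the same steps, as given above, and its part in each change was not tested apart from the effect.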

How the results depend on the processing

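Direction was kept for every called member in all 20 comparisons under each change of filter, scaling, model or array, and 4 calls changed sign with a second probe set: Fosl2 from 1 to 6 h with PTH (0.21) and PTHrP (0.043), and Jund from 6 to 24 h with PTHrP (-0.0033) and from 1 to 24 h in untreated cells (-0.061). Calls of members moved by over 1.5 times as follows. For PTHrP against untreated cells at 24 h the count of 1 became 2 with the stricter filter, quantile normalization, cyclic loess, 16 added before log2, only the groups compared, trend and robust eBayes, or the block of untreated and PTHrP arrays at 1 h, and 4 with array weights. Array weights also gave 5 of 7 for PTH at 1 h (4 higher, 1 lower) and 6 for PTHrP against PTH at 6 h. For PTHrP against PTH at 24 h the count was 0 with median centring, only the groups compared or the replicate block within each time. For untreated cells from 6 to 24 h it was 4 with the stricter filter, only the groups compared, array weights or the 1 h block. With 1 array left out, counts ran from 3 to 4 for either ligand at 1 h, 2 to 4 with PTH and 1 to 2 with PTHrP at 24 h, 0 to 1 for PTHrP against PTH at 24 h, 2 to 4 for untreated cells from 6 to 24 h, and stayed within 1.5 times elsewhere. The replicate block over all times changed no member's call; the block within each time changed 3, Jun for PTHrP against PTH at 24 h, Jun for the change of the PTHrP effect from 6 to 24 h (adjusted p = 0.0512) and Junb for the change of the PTH effect from 1 to 6 h (adjusted p = 0.058). Background counts moved more: genes called with PTHrP at 1 h, 285, ran from 103 with only the groups compared to 1764 with array weights, and were 931 without PTHrP 1 h replicate 3; array weights gave 6952 in place of 3288 with PTHrP at 6 h and 4388 in place of 1830 with PTH at 24 h. The cause of these shifts was not tested. Background correction and slide could not be varied with the values used here. Dim values near log2 5, as for Fosb after 1 h, understate fold changes.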
